A study of Mus musculus with 20 samples.

Results

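Keratins are the intermediate filament proteins of epithelial cells. A filament forms only when a type II keratin pairs with a type I keratin, and the filaments are anchored to neighbouring cells at desmosomes and to the basement membrane at hemidesmosomes. KRT8 and KRT18 form the basic pair of simple epithelia, the kidney tubule included, KRT7 and KRT19 are known from ducts, collecting duct and urothelium, and KRT5 marks basal cells of layered epithelia. Keratin transcripts are known to rise in injured kidney epithelium. The 7 genes described here were chosen by symbol, of 47069 genes in the count table, and are the type II keratins Krt5, Krt7 and Krt8 and the type I keratins Krt18, Krt19, Krt20 and Krt23. All 7 were among the 17622 genes that passed the filter on low counts. Of the 46 other protein-coding keratin genes in the table, 9 passed it.

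RNA-seq was made from the whole kidneys of 20 males, taken when they were 15 weeks old. The WT group (n = 5) was F1 129SJ x C57Bl/6J wild type and untreated. The other 3 groups were F1-Col4a3-/- mice of the same cross, in which both copies of the gene for the α3 chain of type IV collagen are disrupted in every cell, a model of Alport syndrome. From 5 weeks of age, Veh mice (n = 6) were injected under the skin each week with PBS. Anti-miR-21 mice (n = 6) were injected in the same way with lademirsen, an oligonucleotide that inhibits miR-21, at 50 mg/kg, and ACEi mice (n = 3) drank water with ramipril, an inhibitor of angiotensin-converting enzyme, at 11 mg/L and received PBS injections. Both treatments can be compared with Veh, but WT mice received no injection. The comparisons ask how keratin transcripts differ in the diseased kidney and how far each treatment moved them. The mice are called by their labels, A1 to A23.

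The deposited estimated counts summed to between 28474301 and 29479629 per mouse. Col4a3 had 194 to 238 CPM (counts at an equal library size, corrected by TMM for library make-up) in WT, and the group means were 37.8 CPM in Veh, 58.8 CPM in Anti-miR-21 and 48.5 CPM in ACEi. The extraction text of the labels names adipose tissue, whereas the tissue label is kidney. The kidney genes Slc34a1, the phosphate transporter of the proximal tubule, and Umod, of the thick ascending limb, were at 788 CPM or more and 1800 CPM or more in every mouse. The summed CPM of 4 adipocyte markers reached 382.5 in Veh mouse A1 and was at most 15.7 in WT. The 13 libraries of flow cell A and the 7 of flow cell B each held all 4 groups. The count tables were made without a stated strand setting. Annotated genes overlap Krt5 (Gm44323), Krt7 (Gm671, antisense) and Krt8 (Gm36026), taken over whole genes with their introns. Reads from a stretch that such a pair shares cannot be told apart.

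In Veh, all 7 keratins were higher than in WT. Krt20 was up by 94.5 times, Krt19 by 16.1 times, Krt5 by 13.2 times, Krt18 by 7.05 times, Krt8 by 2.98 times, Krt7 by 2.29 times and Krt23 by 2.28 times. Across all genes tested, 39.0% were called higher in Veh (edgeR quasi-likelihood test, Benjamini-Hochberg adjusted p under 0.05). The median log2 fold change was 2.82 over the 7 keratins and 0.07 over all genes tested. For 6 of the 7, every Veh mouse lay above every WT mouse, as for 28.8% of all genes, and Krt23 was the exception. In RNA of whole kidney, more cells of a type and more RNA per cell cannot be told apart.

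Anti-miR-21 mice had less of all 7 keratins than Veh mice, where 30.5% of all genes were called lower, and 6 did not overlap Veh, as for 17.9% of all genes. ACEi mice had less of 6, where 19.1% of all genes were called lower, and the same 6 did not overlap Veh, as for 18.8% of all genes. Krt20 was the one that did not pass the test. The median log2 fold change of the 7 was −1.90 with anti-miR-21 and −1.47 with ACEi, against −0.04 and −0.05 over all genes. Both contrasts share the same Veh mice. Krt20, which had risen most, fell least on the log2 scale under both treatments.

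**Figure D1:**
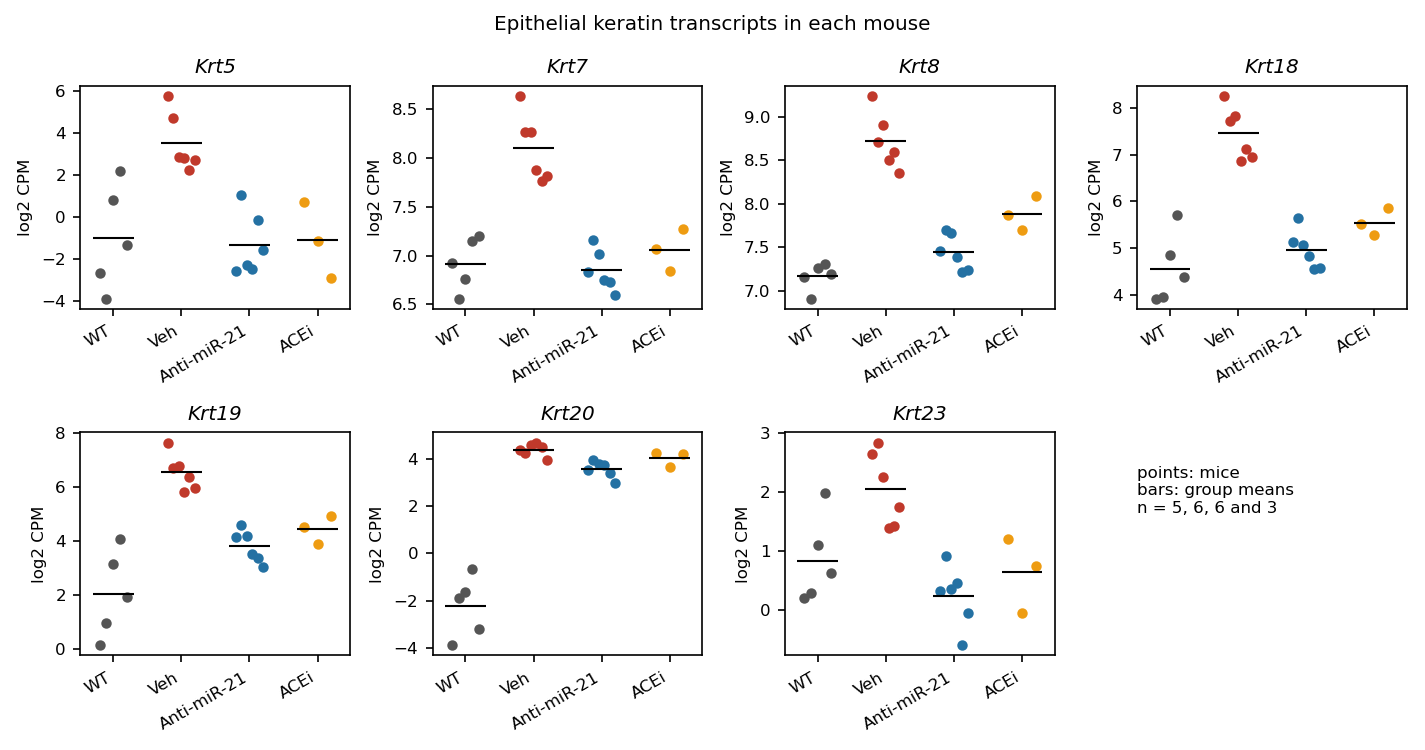
Each panel shows 1 keratin, with log2 CPM on the vertical axis and the 4 groups on the horizontal axis. Points are mice, bars are group means, and n is 5 (WT), 6 (Veh), 6 (Anti-miR-21) and 3 (ACEi). Veh lies highest in every panel, the treated mice come back toward WT for 6 keratins, and for Krt20 every treated mouse stays above every WT mouse.

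Gene length was taken into account only in the deposited FPKM (fragments per kilobase, scaled by library total), which serve here to compare levels between keratins. In WT kidney Krt8 at 65.9 ± 7.16 FPKM and Krt7 at 60.5 ± 11.96 FPKM (mean ± SD, n = 5) stood highest and differed by less than their spread. Krt18 followed at 15.7 ± 9.68 FPKM and Krt19 at 3.88 ± 4.004 FPKM. Krt23 at 1.09 FPKM, Krt5 at 0.517 FPKM and Krt20 at 0.0941 FPKM came last, each apart from its neighbour by less than the SD. In Veh the order from the top was the same as far as Krt19, with Krt8 at 298 FPKM, Krt7 at 213 FPKM, Krt18 at 167 FPKM and Krt19 at 93.3 FPKM (n = 6). Krt20 moved from the last place to the fifth, at 13.5 ± 2.18 FPKM, next to Krt5 at 10.2 ± 11.4 FPKM, from which it differed by less than the spread of Krt5, and Krt23 was last at 3.72 FPKM.

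The summed FPKM of the 7 keratins was 148 ± 30.8 in WT and 798 ± 256 in Veh, and went to 205.6 ± 48.5 with anti-miR-21 and 281 ± 50.1 with ACEi. These sums are not corrected for library make-up, and the TMM factors were 0.7705 to 0.8496 in WT and 1.123 to 1.264 in Veh. The differences from WT are therefore larger in FPKM than in CPM. For Krt8 the rise in Veh was 2.13 on log2(FPKM + 1) and 1.55 after division by the TMM factor. The make-up of the sum changed as well. Krt7 and Krt8 together made up most of it in WT, with 41.2% and 45.3%, whereas Krt18 held 10.1% and Krt19 2.34%. In Veh, Krt18 held 20.4% and Krt19 11.2%. The ratio of type II to type I keratins, by summed FPKM, was 3.36 to 12.4 in WT and 1.59 to 2.48 in Veh, without overlap. It was 3.23 to 5.15 with anti-miR-21 and 3.32 to 4.08 with ACEi, both above Veh and overlapping WT. Krt20 held 0.0588% of the sum in WT, 1.82% in Veh, 2.96% with anti-miR-21 and 3.12% with ACEi.

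**Figure D2:**
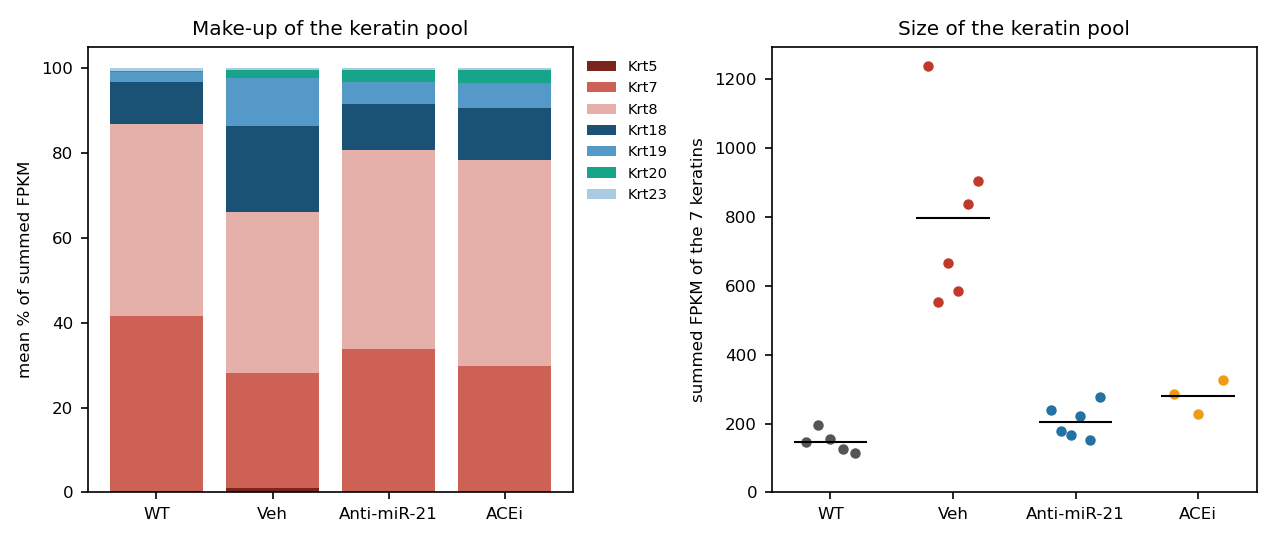
The left panel gives each keratin's mean percentage of the summed FPKM of the 7 keratins per group, with type II keratins in red and type I keratins in blue and green. The right panel gives the summed FPKM of each mouse (points) and the group mean (bars), which was 148 in WT, 798 in Veh, 205.6 with anti-miR-21 and 281 with ACEi. The sums are not corrected for library make-up.

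Krt8 and Krt18 encode the partners of the simple epithelial filament. They lie head to head on chromosome 15 of GRCm38, Krt8 (ENSMUSG00000049382) on the minus strand at chr15:101996698-102004482 and Krt18 (ENSMUSG00000023043) on the plus strand at chr15:102028180-102032027, with 23697 bases between them. Krt8 had 121 to 159 CPM in the WT mice. In Veh it had 326 CPM in the lowest mouse, a median of 403 and 605 in the highest, A1. The Veh range lay wholly above WT, with a log2 fold change of 1.58 (SE 0.14, adjusted p = 3.09e-09 by edgeR). With anti-miR-21, Krt8 had 149 to 207.6 CPM with a median of 172, a fall of 1.29 on the log2 scale from Veh (SE 0.13, adjusted p = 1.24e-07). The ACEi mice had 234, 208.3 and 272 CPM, a fall of 0.85 (SE 0.16, adjusted p = 0.000421), and no treated mouse reached the Veh range.

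Krt18 varied more than its partner among the WT mice, with 15.1, 15.3, 28.8, 52.2 and 20.7 CPM in A3, A6, A14, A17 and A18. In Veh it had 117 to 305 CPM with a median of 174, again highest in A1, and the log2 fold change was 2.82 (SE 0.33, adjusted p = 1.76e-07). Anti-miR-21 mice had 23.5 to 49.9 CPM with a median of 30.9, and ACEi mice had 45.6, 38.8 and 57.5 CPM. The fall from Veh was 2.53 (SE 0.30, adjusted p = 7.94e-07) with anti-miR-21 and 1.98 (SE 0.39, adjusted p = 0.000509) with ACEi. Neither treated group overlapped Veh.

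The partners did not move by the same factor. The ratio of Krt8 to Krt18 counts was 9.45, 7.85, 5.30, 3.04 and 7.03 in the WT mice and 1.98 to 3.10 in Veh. On the log2 scale it was 1.34 lower in Veh than in WT, with an exact two-sided permutation p of 0.00433 (adjusted p = 0.0124 over 20 ratio tests), although WT mouse A17 lay below Veh mouse A16. It was 4.16 to 6.33 with anti-miR-21 and 4.73 to 5.37 with ACEi. These were higher than in Veh by 1.21 (exact permutation, adjusted p = 0.0072) and by 1.08 (adjusted p = 0.0238). With 3 ACEi mice the smallest p that the exact test allows is 0.0119, and it was reached. Left out in turn, each ACEi mouse took the adjusted p of that ratio to 0.0714, since fewer divisions were then possible.

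The promoters of these partners and of Krt20 are shown because the genes moved by different factors. They are the 250 bases before the annotated start, from RefSeq (GRCm38.p6), in which 6 letter patterns were searched on both strands. These were the TATA box as TATAAA, the CCAAT box by its name, and the GC box, bound by Sp1 family factors, as GGGCGG. The others were the AP-1 site, bound by Fos and Jun proteins, as TGANTCA, and the E-box of Snail and related factors as CACCTG. The last was the NF-kB site, in a form with more fixed letters than its general consensus. Capitals mark every match to these 6 patterns. Stretches that fit only the general NF-kB consensus were not searched and stay in lower case.
Krt8, chr15:102004343-102004592, minus strand: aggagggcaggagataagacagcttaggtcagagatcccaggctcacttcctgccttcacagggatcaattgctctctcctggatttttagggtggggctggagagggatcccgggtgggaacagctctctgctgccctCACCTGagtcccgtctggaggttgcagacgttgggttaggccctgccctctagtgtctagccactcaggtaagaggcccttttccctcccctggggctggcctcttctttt
Krt18, chr15:102027966-102028215, plus strand: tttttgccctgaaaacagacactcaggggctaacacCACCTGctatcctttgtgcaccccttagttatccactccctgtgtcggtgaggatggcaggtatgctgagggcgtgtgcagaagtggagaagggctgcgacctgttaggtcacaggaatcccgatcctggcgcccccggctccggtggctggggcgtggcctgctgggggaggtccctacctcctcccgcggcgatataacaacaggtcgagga
Krt20, chr11:99438154-99438403, minus strand: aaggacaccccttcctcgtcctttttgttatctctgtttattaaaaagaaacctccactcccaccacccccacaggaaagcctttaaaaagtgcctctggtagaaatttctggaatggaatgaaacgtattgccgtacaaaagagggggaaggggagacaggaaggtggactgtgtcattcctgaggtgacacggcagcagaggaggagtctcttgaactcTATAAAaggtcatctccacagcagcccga

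The tables hold promoters for 6 of the 7 keratins, Krt19 being the other one. Krt8 held CACCTG at 111 bases before the start and Krt18 further from it, and Krt20 held TATAAA at 29 bases and no CACCTG. Over the 6 promoters, CACCTG was found in 5 (Krt5, Krt7, Krt8, Krt18 and Krt23), and 17.2% of all 32851 promoters held it. TATAAA was found in 1 of 6, against 12.4% of all promoters. The GC box was found 4 times in Krt7 and in no other member, with 32.7% of all promoters holding it. The searched form of the NF-kB site was found in Krt23 alone, with 1.21% of all promoters holding it. Looser NF-kB sites were not counted in either figure. None of the 6 held CCAAT or TGANTCA in this window, which 33.8% and 6.75% of all promoters held. No matches overlapped. A match is a string of letters and was not tested as a binding site.

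The oligonucleotide of the Anti-miR-21 group acts on miR-21, whose mature sequence (miR-21a-5p, RefSeq, GRCm38.p6) is shown with its seed, bases 2 to 8, in capitals.
miR-21a-5p, chr11:86584120-86584141, minus strand: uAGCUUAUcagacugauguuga
A miRNA mostly lowers transcripts that carry the complement of its seed after the stop codon. The complement, ATAAGCT, occurred after the stop codon in 0 of the 7 keratins (longest such stretch per gene in GENCODE M21) and in 7.18% of 21020 genes with such a stretch.

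Krt7 and Krt19 form the ductal pair. Krt7 (ENSMUSG00000023039, chr15:101411043-101430313) had 121, 94.4, 108, 142 and 147 CPM in the WT mice A3, A6, A14, A17 and A18 and 216 to 396 CPM in Veh, with a median of 270. The groups did not overlap, and the log2 fold change was 1.20 (SE 0.16, adjusted p = 7.65e-07). Anti-miR-21 mice had 97.0 to 143 CPM with a median of 111, and ACEi mice 134, 115 and 154 CPM. The fall from Veh was 1.27 (SE 0.15, adjusted p = 5.26e-07) and 1.06 (SE 0.19, adjusted p = 0.00019). All treated mice lay below Veh, and their ranges overlapped that of WT.

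Krt19 (ENSMUSG00000020911, chr11:100140810-100148665), the smallest keratin, which lacks the usual tail, spread widely in WT with 1.02, 1.85, 8.66, 16.5 and 3.69 CPM in A3, A6, A14, A17 and A18. In Veh it had 55.8 to 200.005 CPM with a median of 93.4, and A1 stood apart from the others. The log2 fold change was 4.0 (SE 0.53, adjusted p = 9.89e-07), and it was 4.74 without WT mouse A17 and 3.70 without Veh mouse A1. Anti-miR-21 mice had 8.14 to 24.2 CPM with a median of 14.5, a fall of 2.77 (SE 0.46, adjusted p = 3.21e-05). ACEi mice had 22.5, 14.7 and 30.1 CPM, a fall of 2.19 (SE 0.58, adjusted p = 0.00545). All treated mice lay below Veh, and both treated ranges overlapped that of WT.

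The ratio of Krt7 to Krt19 counts was 115, 50.6, 12.5, 8.60 and 39.5 in the WT mice, 1.98 to 4.19 in Veh, 5.92 to 11.9 with anti-miR-21 and 5.13 to 7.82 with ACEi. In log2 terms it was 3.35 lower in Veh than in WT (exact permutation, adjusted p = 0.0072). It was 1.49 higher with anti-miR-21 (adjusted p = 0.0072) and 1.07 higher with ACEi (adjusted p = 0.0238) than in Veh, and the latter adjusted p was 0.0714 without any of the 3 ACEi mice. Among the type I keratins, Krt19 rose more than Krt18 in Veh, with a log2 ratio of Krt19 to Krt18 that was 1.64 higher than in WT (exact permutation, adjusted p = 0.0072). That ratio did not differ detectably from Veh under either treatment, at −0.25 with anti-miR-21 (adjusted p = 0.142) and −0.21 with ACEi (adjusted p = 0.34).

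Krt20 (ENSMUSG00000035775, chr11:99428403-99438150), a type I keratin known from intestine and from the surface cells of the urothelium, was almost absent from WT kidney. The WT mice A3, A6, A14, A17 and A18 had 0, 5, 6, 14 and 1 counts. The Veh mice had 538 to 860 counts, which is 15.2 to 25.4 CPM with a median of 21.4. The log2 fold change was 6.56 (SE 0.36, 95% interval 5.82 to 7.31, adjusted p = 5.74e-12), and it was 7.32 without WT mouse A17. In CPM, Krt20 was highest in A16, the Veh mouse with the least Krt18 and Krt19, whereas by counts and FPKM it was highest in A9. Within Veh it had the smallest spread of the 7, as the highest mouse had 1.67 times the lowest.

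Under treatment Krt20 stayed far above WT. Anti-miR-21 mice had 7.68 to 15.3 CPM with a median of 12.2, which was 0.82 lower than Veh on the log2 scale (SE 0.21, adjusted p = 0.0023) but overlapped it. ACEi mice had 18.8, 12.3 and 18.3 CPM. Their difference from Veh was −0.35 (SE 0.26, 95% interval −0.89 to 0.19, adjusted p = 0.294), and on log2(FPKM + 1) it was −0.58 and passed the test (limma, adjusted p = 0.019), while all genes had a median of −0.11 there. Compared to WT, Krt20 was 5.74 higher with anti-miR-21 (SE 0.36, adjusted p = 4.03e-10) and 6.21 higher with ACEi (SE 0.38, adjusted p = 1.96e-10). Without A17 these values were 6.51 and 6.97.

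The ratio of Krt20 to Krt18 counts set the course of Krt20 apart. It was at most 0.0147 in WT, 0.0677 to 0.217 in Veh, 0.308 to 0.461 with anti-miR-21 and 0.318 to 0.413 with ACEi. Both treatments raised it above Veh without overlap, by 1.66 (exact permutation, adjusted p = 0.0072) and 1.55 (adjusted p = 0.0238) on the log2 scale, and in Veh it was 4.33 above WT (adjusted p = 0.0072). The adjusted p for ACEi was 0.0714 without any of the 3 ACEi mice and without Veh A4, A9 or A20.

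Krt5 and Krt23 were the low members. Krt5 (ENSMUSG00000061527, chr15:101707070-101712898), the keratin of basal cells, had 2, 0, 40, 112 and 8 counts in the WT mice A3, A6, A14, A17 and A18. In Veh it had 170 to 1972 counts, or 4.67 to 54.5 CPM with a median of 7.22, and A1 and A4 held most of it. The ranges of WT and Veh only just missed each other, as A17 had 4.58 CPM. The log2 fold change was 3.72 (SE 0.94, adjusted p = 0.00138), and it was 2.96 without A1 and 5.06 without A17. Anti-miR-21 mice had 3 to 60 counts and ACEi mice 48, 11 and 2, all below Veh. The fall was 4.91 (SE 0.95, adjusted p = 0.000168) with anti-miR-21, and the values without A1 and without A8 were −4.12 and −5.92. With ACEi it was 4.69 (SE 1.25, adjusted p = 0.00573), and the values without A1 and without A11 were −3.90 and −6.26.

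Krt23 (ENSMUSG00000006777, chr11:99477974-99493137), a type I keratin that lies 39823 bases from Krt20, had 24 to 94 counts in WT and 83 to 251 in Veh. Its log2 fold change was 1.19 (SE 0.36, adjusted p = 0.0059), and WT mouse A17 with 3.84 CPM lay within the Veh range of 2.56 to 7.05 CPM. Anti-miR-21 mice had 0.590 to 1.81 CPM, a fall of 1.90 (SE 0.35, adjusted p = 0.000105), and ACEi mice 2.23, 0.895 and 1.60 CPM, a fall of 1.47 (SE 0.44, adjusted p = 0.0117). Without ACEi mouse A13 the value was −1.19 (adjusted p = 0.0821).

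The treatments differed from each other for 0 of the 7 keratins by the edgeR test, where 0.584% of all genes were called. At an unadjusted p under 0.05, 1 of 7 passed, Krt8. Its log2 difference between Anti-miR-21 and ACEi was −0.44 (95% interval −0.76 to −0.12, adjusted p = 0.194 by edgeR). In CPM its 6 Anti-miR-21 mice lay below the 3 ACEi mice, as 4.80% of all genes did. The groups were barely apart, with 207.6 CPM in A8 and 208.3 CPM in A13. In FPKM they overlapped, with 120.2 in A8 and 114.2 in A13, and so they did in counts. DESeq2 called 0 of the 7 as well. All 7 had lower means with anti-miR-21, with log2 differences of −0.58 to −0.21, and the widest interval was that of Krt5, from −2.89 to 2.45. For Krt20 the interval went from −1.0 to 0.06. No ratio of keratins differed detectably between the treatments either, with adjusted p-values of 0.292 to 0.821 in exact permutation tests, where 0.0119 is the smallest p possible.

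Compared to WT, 1 keratin was higher with anti-miR-21 (Krt20), where 23.9% of all genes were called higher, and 3 were higher with ACEi (Krt20, Krt19 and Krt8), where 25.2% were. Every mouse of the Anti-miR-21 group lay above WT for Krt20, as for 14.7% of all genes, and every ACEi mouse lay above WT for Krt20 and Krt8, as for 23.9%. Krt19 was 1.23 above WT with anti-miR-21 (95% interval 0.19 to 2.28, adjusted p = 0.0524) and 1.82 with ACEi (interval 0.63 to 3.0, adjusted p = 0.0124). Krt8 was 0.28 above WT with anti-miR-21 (adjusted p = 0.0961) and 0.72 with ACEi (adjusted p = 0.00102). Krt18 with ACEi was 0.84 above WT (adjusted p = 0.0635). Single mice and settings decided several of these calls. Krt8 with anti-miR-21 passed with library totals (log2 0.54, adjusted p = 0.00757 by edgeR), with only the groups compared (adjusted p = 0.0349) and on both FPKM scales (0.52, limma). All genes moved up in part there, with a median between Anti-miR-21 and WT of 0.26 with library totals. It was 0.08 on log2(FPKM + 1) and 0.17 on log2(FPKM + 0.1), against 0.01 in the main fit. Krt18 with ACEi passed with library totals (1.14, adjusted p = 0.0187) and on both FPKM scales (1.24 and 1.30). Krt19 with anti-miR-21 passed under 6 settings, at 1.28 to 1.98, and with ACEi it was 0.88 in flow cell B (adjusted p = 0.278). Krt19 with anti-miR-21 passed without WT mouse A17 (log2 1.97, adjusted p = 0.00351), and without Anti-miR-21 mouse A22 (1.36, adjusted p = 0.0379). Krt18 with ACEi passed without A17 (1.24, adjusted p = 0.00385), and Krt19 with ACEi was 2.55 without A17 and did not pass without ACEi mouse A23 (1.55, adjusted p = 0.0631).

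**Figure D3:**
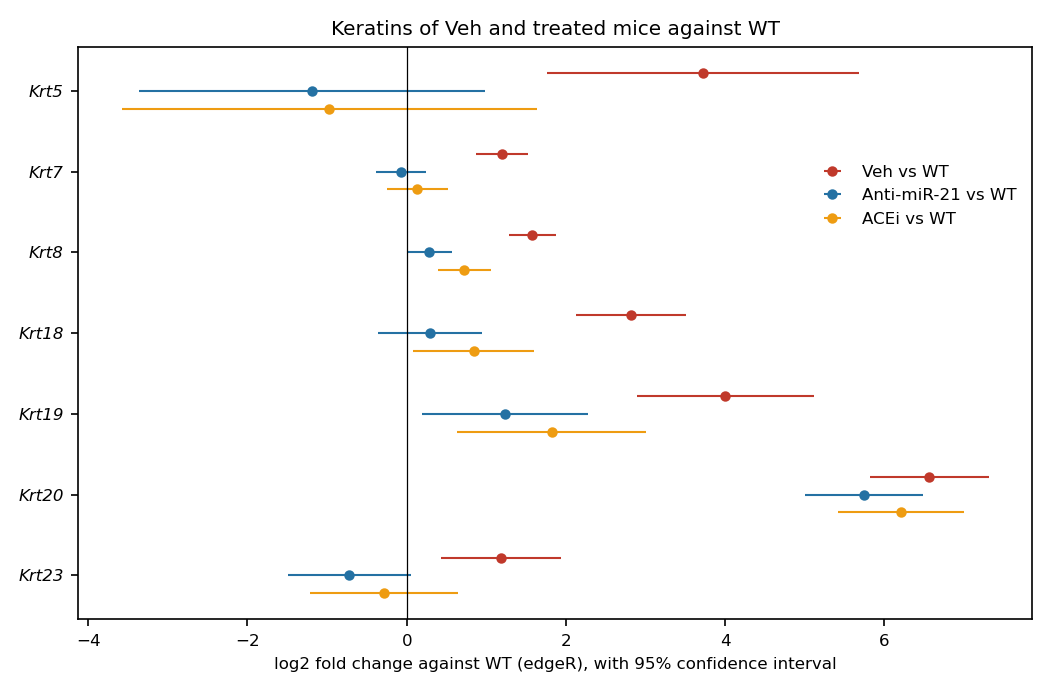
Log2 fold change of each keratin against WT (horizontal axis) in Veh, Anti-miR-21 and ACEi, as points with 95% confidence intervals from edgeR. Krt20 lies at 5.74 or more in all 3 contrasts, whereas the intervals of Krt5, Krt7 and Krt23 include 0 in both treated groups.

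Placed between the Veh mean (0%) and the WT mean (100%) of log2 CPM, the keratins took different positions, not all of them told apart. Krt20 had covered 12.5% ± 5.32 of the way (SD, n = 6) with anti-miR-21 and 5.37% ± 5.16 (SD, n = 3) with ACEi. Krt19 had covered 60.6% and 46.8%, Krt8 82% and 53.6%, and Krt18 86.0% and 65.9%. Krt7 was at 106% and 87.9%, Krt5 at 108% and 103%, and Krt23 at 149% and 117%. The highest treated mouse for Krt20, A22, was at 21.5%, below the lowest for Krt19, which was 36.1% in A23. The spread was widest for Krt5 and Krt23, at SDs of 32.8 to 52.3 percentage points, so positions above 100% were not told apart from WT by the edgeR test. These positions share the Veh and WT means. That of Krt20 depends on the log2 scale, because WT mice had only 0 to 14 counts of it. Its mean CPM went from 21.0 in Veh to 11.9 with anti-miR-21 and 16.5 with ACEi, against 0.215 in WT.

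**Figure D4:**
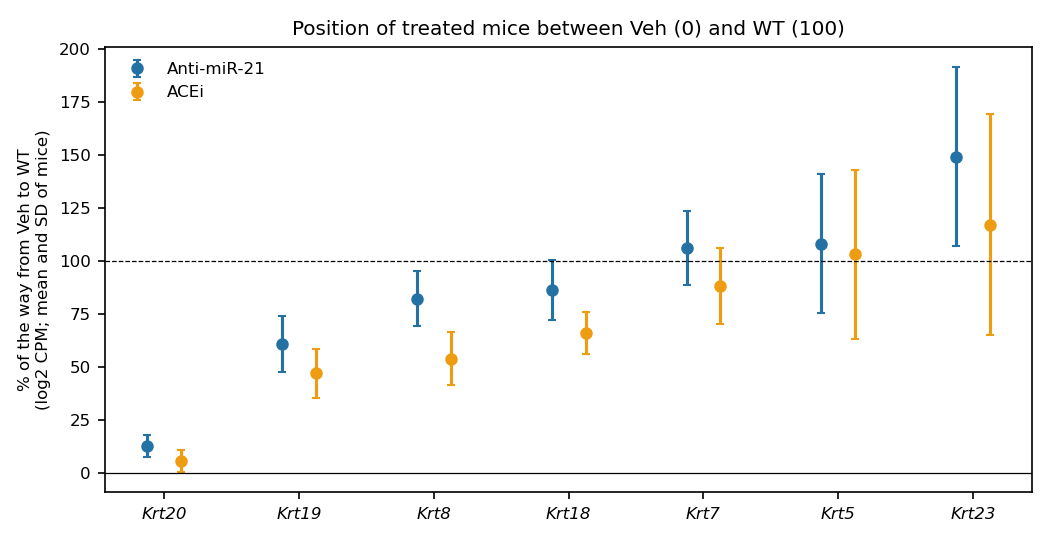
Mean position of the treated mice between Veh (0%) and WT (100%) on the log2 CPM scale for each keratin, with SD bars over 6 Anti-miR-21 and 3 ACEi mice. Krt20 lies lowest of the 7 under both treatments, at 12.5% and 5.37%, and Krt5, Krt7 and Krt23 lie around or above 100%. The position of Krt20 depends on the log2 scale, as WT had few counts of it.

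Among the 9 other keratins tested, 6 were higher and 1 lower in Veh than in WT, 6 were lower and 1 higher with anti-miR-21 than in Veh, and 4 were lower and 1 higher with ACEi. Of all genes, 34.0% were called lower in Veh, and 28.8% and 21.0% were called higher than Veh with anti-miR-21 and ACEi. Krt80, the one with the highest mean level, had 9.26 ± 2.32 CPM in WT and 10.1 ± 0.717 CPM in Veh, a log2 difference of 0.12 (adjusted p = 0.463). Krt10, a type I keratin of the upper epidermis, was the one that fell in Veh, by 1.73 on the log2 scale (adjusted p = 3.59e-09), from 8.95 to 2.70 CPM, and it rose by 1.13 with anti-miR-21 and by 0.93 with ACEi. Krt15, a basal cell keratin, went from 1.83 to 11.9 CPM in Veh (log2 2.69, adjusted p = 0.0109) and to 0.517 and 0.768 CPM under treatment. Named after their values were seen, Krt14, the usual partner of Krt5, rose by 4.40 on the log2 scale, and Krt17, an injury keratin of skin, went from 0.00818 CPM in WT to 6.18 CPM in Veh. The ratio of Krt5 to Krt14 passed no test, with adjusted p-values of 0.205 to 0.681 by exact permutation, and among the WT mice it varied with an SD of 2.61 log2 units.

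Genes that anchor or bind keratins moved both ways. For these and the lists and markers below, 39.0% of all genes were called higher and 34.0% lower in Veh than in WT. Compared to Veh, 28.8% of all genes were called higher and 30.5% lower with anti-miR-21, and 21.0% and 19.1% with ACEi. Of 8 desmosome genes, 5 were higher and 1 lower in Veh, with a median log2 fold change of 0.66, and 6 fell and 1 rose with anti-miR-21, and 4 fell and 1 rose with ACEi. Dsp, desmoplakin, which ties keratins to desmosomes, rose by 1.03 and fell by 1.09 with anti-miR-21 and by 0.97 with ACEi. Jup, plakoglobin, rose by 0.28, Pkp4 fell by 1.22 (Veh compared to WT), and Pkp3 with 0.11 did not pass. All 4 hemidesmosome genes rose in Veh, Itgb4 by 2.49, Cd151 by 0.61, Itga6 by 0.42 and Col17a1 by 6.34. All 4 fell with anti-miR-21 and 2 with ACEi. Col17a1, a transmembrane collagen of hemidesmosomes, stayed 5.80 above WT with anti-miR-21 and 6.16 with ACEi, with means of 0.0512 CPM in WT, 4.43 CPM in Veh, 3.05 CPM with anti-miR-21 and 3.93 CPM with ACEi.

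Of the 5 plakins tested, the linker proteins of intermediate filaments, 3 rose and 2 fell in Veh. Plec, plectin, rose by 1.5 and Macf1 by 0.18, while Dst fell, with a value of −0.77, and Evpl, with −0.39. With anti-miR-21, 2 of the 5 fell and 1 rose, and the same counts held for ACEi. Of 4 keratin-binding genes 2 rose and 2 fell in Veh. Sfn, which encodes 14-3-3 sigma, a binder of keratins, rose by 3.34 and fell by 2.0 with anti-miR-21 and by 1.51 with ACEi. Tchp rose by 0.58, and Dnajb6 and Fbf1 had −0.53 and −0.25.

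The other intermediate filament genes rose together with the keratins in Veh, 10 of 12 tested with none lower. Compared to Veh, 9 of 12 fell with anti-miR-21 and 8 of 12 with ACEi, and none rose. Compared to WT, 9 of 12 were higher with anti-miR-21 and 8 of 12 with ACEi, where 23.9% and 25.2% of all genes were. The ACEi count against WT includes Nefm, which had not passed in Veh. Vim, vimentin of mesenchymal cells, had 51.3 CPM in WT and 388 CPM in Veh (log2 2.92), Nes was 2.33 higher, Des 1.47 and Lmna 1.0. Of 9 genes of epithelial identity, 5 were higher and 2 lower in Veh, with a median of 0.27. Elf3, an epithelial transcription factor, was 2.12 higher, Epcam 1.0 and Cdh1, E-cadherin, 0.27, while Cdh16, the kidney cadherin, had −0.73. Under anti-miR-21, 6 of the 9 fell and 2 rose, and under ACEi 6 fell and 1 rose.

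Some markers of tissues outside the nephron were also higher in Veh than in WT. The summed CPM of 4 uroplakins, the membrane proteins of urothelium, was 2.14 to 30.5 in WT, 6.02 to 137 in Veh, 1.55 to 7.57 with anti-miR-21 and 1.64 to 5.15 with ACEi. A17 and A14 held 30.5 and 16.1 of it in WT, and A1 and A4 held 137 and 90.4 in Veh. In Veh, 3 of the 4 uroplakins were higher than in WT. Of the basal markers tested, 3 of 3 were higher, but Krt14 and Krt15 are keratins counted above, and only Trp63 (log2 1.17, adjusted p = 0.0038) is not (summed CPM 0.668 to 6.08 in WT and 7.42 to 43.95 in Veh), and Dsg3, a defining basal gene, was at or near 0. Of the mesothelial markers 1 of 3 was higher, with summed CPM of 3.77 to 17.1 in WT and 9.89 to 43.2 in Veh, and of the adipocyte markers 3 of 4. A17 was also the highest WT mouse for 6 of the 7 keratins, and A1 the highest Veh mouse for 5. The part of these cells in the keratin values was not tested.

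Without A1 and A4 together, 6 of 7 keratins passed the test in Veh compared to WT, and Krt23 missed it (log2 0.77, adjusted p = 0.0702), and Krt5 was 2.24 (adjusted p = 0.0372). The other 5 had 1.01 (Krt7), 1.44 (Krt8), 2.51 (Krt18), 3.6 (Krt19) and 6.61 (Krt20). All 7 fell with anti-miR-21 compared to Veh, and 5 with ACEi. Of all genes, 70.6%, 54.0% and 33.3% were called in either direction in these 3 fits. This alternative was chosen after seeing the data.

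The WT mice with the most uroplakin RNA, A17 and A14, also had the most Krt20 in WT. Between mice of different groups the order of Krt20 and that of the uroplakins differed. WT mouse A17 had 30.5 CPM of uroplakins and 0.572 CPM of Krt20, whereas Veh mouse A19 had 6.02 CPM of uroplakins and 22.2 CPM of Krt20, and ACEi mouse A23 had 1.64 and 18.3 CPM. Krt5 was highest in A1 and A4, the mice with most uroplakin RNA, at 54.5 and 26.7 CPM. A17, next in uroplakins, had 4.58 CPM of Krt5, less than every Veh mouse. Veh mouse A9 had 11.8 CPM of uroplakins and 7.34 CPM of Krt5, and A19 had 4.67 CPM of Krt5. Within WT and within ACEi, Krt5 was highest in the mouse with the most uroplakin RNA, A17 and A11. A11 had 5.15 CPM of uroplakins and 1.57 CPM of Krt5, and A23, lowest for both in ACEi, had 1.64 and 0.0681 CPM. With anti-miR-21, Krt5 was highest in A8 and the uroplakins in A15. The part of urothelium in Krt5 and Krt20 was not tested. The summed CPM of 6 tubule injury markers (Havcr1, Lcn2, Vcam1, Sox9, Clu and Spp1) was 908 to 1011 in WT, 11920 to 18370 in Veh, 4296 to 9978 with anti-miR-21 and 7930 to 8667 with ACEi, so that all treated mice lay above WT, as they did for the summed markers of macrophages, fibroblasts and podocytes. All 6 of these tubule injury genes were called higher than WT in both treated groups, as were 23.9% (Anti-miR-21) and 25.2% (ACEi) of all genes.

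**Figure D5:**
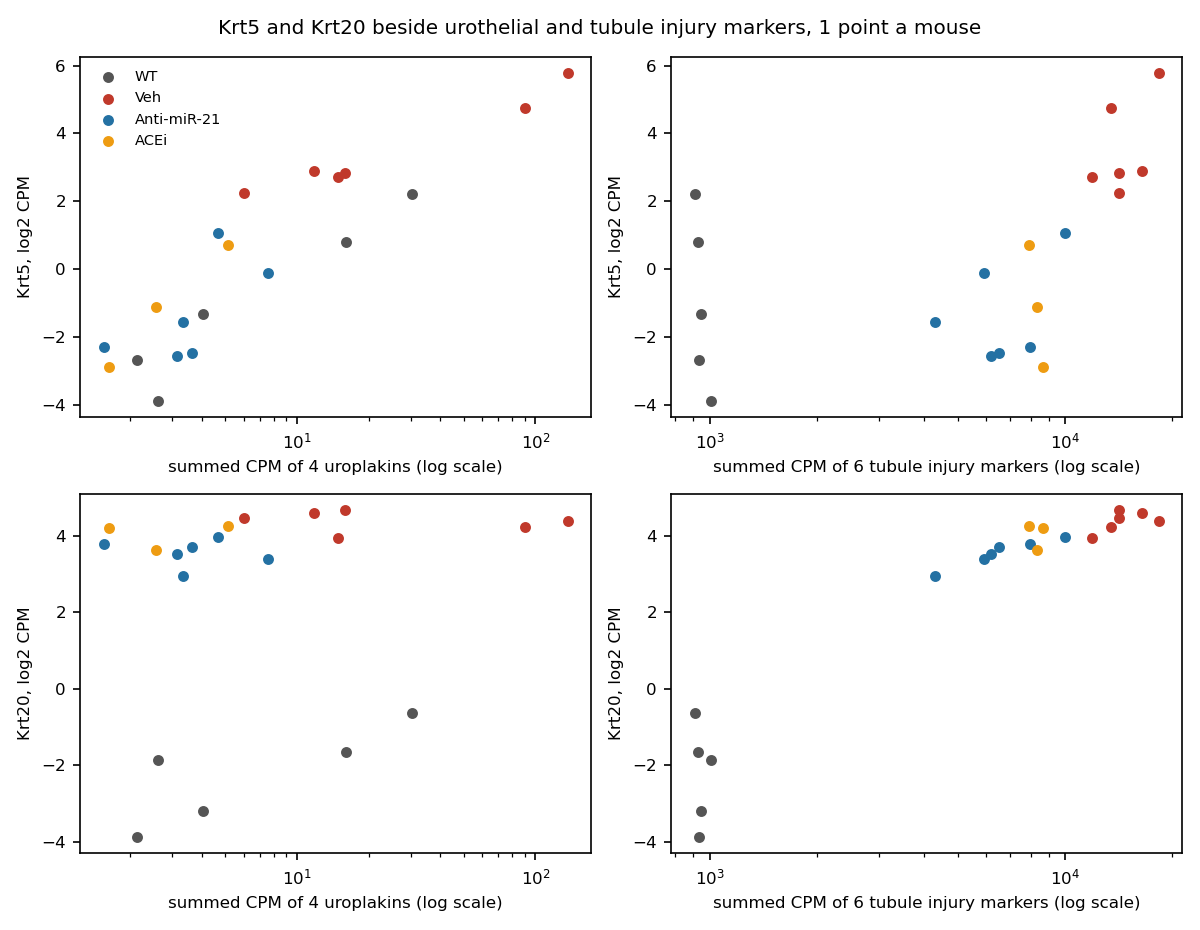
Log2 CPM of Krt5 (upper panels) and Krt20 (lower panels) in each mouse against the summed CPM of 4 uroplakins (left, log scale) and of 6 tubule injury markers (right, log scale). Treated mice with under 8 CPM of uroplakins hold 7.68 to 18.8 CPM of Krt20, and the WT mice, with up to 30.5 CPM of uroplakins, hold at most 0.572 CPM.

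The nephron segments themselves went the other way in part. The summed markers of the proximal tubule fell from 9253 to 12170 CPM in WT to 1070 to 2966 CPM in Veh, and all 4 were called lower, as were 4 of 4 for intercalated cells, 2 of 2 for the distal convoluted tubule and 2 of 3 for the thick ascending limb, where 1 was higher. Of the markers of collecting duct principal cells, which are known to contain simple keratins, 2 of 4 were lower, with summed CPM of 578 to 932 in WT and 362 to 750 in Veh. Podocyte markers were higher for 2 of 3, and macrophage and fibroblast markers for 3 of 3 each. The summed macrophage markers were at 12.8 to 23.5 CPM in WT, 303 to 397 CPM in Veh, 118 to 212.1 CPM with anti-miR-21 and 161 to 210.3 CPM with ACEi. Those of fibroblasts were at 77.4 to 185 CPM, 1302 to 1599 CPM, 332 to 668 CPM and 655 to 760.5 CPM in the same order, and those of podocytes at 153 to 261 CPM, 237.5 to 265 CPM, 314 to 372 CPM and 301 to 314 CPM. Their part in the keratin values was not tested.

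Across the 20 mice, the log2 CPM of the keratins ran closely together, with Pearson r of 0.97 between Krt8 and Krt18, 0.95 between Krt18 and Krt19 and 0.94 between Krt7 and Krt8. For Krt20, r ranged from 0.26 with Krt23 to 0.80 with Krt19. After the group means were taken off, r was 0.93 between Krt18 and Krt19. That of Krt20 was then 0.12 with Krt7, 0.27 with Krt8, 0.42 with Krt5, 0.56 with Krt23, 0.62 with Krt18 and 0.74 with Krt19, and the lowest among the other keratins was 0.42, between Krt5 and Krt8. These are descriptions over mice that share groups and flow cells.

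The genes most like each keratin over the 20 mice were mostly different between members, but some were shared. They were drawn from 13196 to 13197 genes with a mean log2 CPM of at least 1. For Krt8 they were Clic1 (r = 0.981), Cldn7 and Cd24a, and for Krt18 Itgb4 (0.982), which encodes the hemidesmosome integrin β4, Fam3c and Cd24a. For Krt19 they were Muc1 (0.985), a membrane mucin, Abcc3 and Arhgap33, and for Krt7 Ntpcr (0.973), Mal2 and Gipc1. Krt5 was most like Atp10b (0.906), Serinc2 and Plet1, and Krt23 like Serinc2 (0.923), Atp10b and Tmc4. Krt20 was most like Prkcb (0.982), a protein kinase C, Lyz2 (0.982), a lysozyme, and Cxcl2 (0.981), a chemokine. After the group means were taken off, these r were 0.794, 0.798 and 0.602.

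The libraries of each flow cell were also tested alone. In flow cell A all 7 keratins were called higher in Veh than in WT and lower with anti-miR-21 than in Veh, where 65.2% and 53.5% of all genes were called in either direction. In flow cell B, with 2 Veh and 2 WT mice, 5 of 7 were called higher, where 50.1% of all genes were called in either direction, and Krt5 (log2 1.46, adjusted p = 0.244) and Krt23 (0.13, adjusted p = 0.86) were not. With 2 Veh and 2 ACEi mice there, 2 of 7 were called lower, Krt7 and Krt8, where 7.35% of all genes were called in either direction.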

How the data were processed

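Total RNA of 20 kidneys was read as paired ends, and mice were grouped by the group labels of their records. Alignment was done by the authors with OmicSoft's software on GRCm38, and they deposited estimated counts (expected counts) for 47069 Ensembl genes, not scaled between libraries, of which 29.1% of the positive values are not whole. They also deposited FPKM for 33368 entries of mostly UCSC genes, scaled by the authors for length and library total, and 3 FPKM columns of other libraries were not used. The library table lists ramipril at 4 mg/kg, where the labels give 11 mg/L.

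Counts were rounded and filtered with filterByExpr (minimum count 10, minimum total 15) and scaled by TMM. A single model of all 20 mice, with a coefficient for each group, was fitted in edgeR 4.0.16 (R 4.3.3), and its quasi-likelihood p-values were adjusted by Benjamini-Hochberg over 17622 genes. Log2 CPM used a prior count of 2. Ratios of 2 keratins, with 0.5 added to both counts, were tested with exact two-sided permutations and adjusted over 20 tests. DESeq2 1.42.0 and limma 3.58.1 on log2(FPKM + 1) served as alternatives, beside other scalings, filters, flow cells and each mouse left out. P-values measure the spread between mice. The tests over genes were tried on simulated counts first, with 200 of 17620 genes changed. Of the genes called there, 1.16% to 6.67% were false with edgeR, depending on the contrast. With DESeq2 it was 7.53% to 17.4%, above the nominal level, and with limma 0.575% to 9.14%. Limma, run there on log2(CPM + 1), returned the changes at 0.815 to 0.832 of their size.

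Named were the 7 members, the 3 other keratins and up to 4 genes of each list with the highest mean log2 CPM, and the 3 genes most like each member. The members, the lists and the markers were chosen with earlier results of these data known.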

Additional observations from a re-analysis of the deposited data

Results flagged for a closer look

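Krt19 in Veh mouse A1 was flagged because it stood far from the other mice of its group, with 200.005 CPM against 108 CPM in the next mouse. The gap was 0.635 of the range of the 6 Veh mice, where Dixon's critical value is 0.625. It was 1 of 21 sets of mice and keratin examined, and chance flags about 1 in 20. A1 also held the most uroplakin, mesothelial and adipocyte marker RNA of the Veh mice, and without it the log2 fold change of Krt19 between Veh and WT was 3.70.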

How the results depend on the processing

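The 7 keratins kept their direction between Veh and WT and between either treatment and Veh under every alternative run, except that Krt5 and Krt20 were not tested when at least 10 counts were required in every mouse. With library totals alone the median over all genes (log2) became 0.65, −0.38 and −0.32 in these 3 contrasts, with 7, 7 and 6 keratins called as before. The count of keratins called was 2 instead of 6 between ACEi and Veh in flow cell B. Between Anti-miR-21 and WT it was 3 instead of 1 with library totals, log2(FPKM + 1) and log2(FPKM + 0.1), and 2 with only the groups compared (where Krt5 was not tested), flow cell A alone and FPKM divided by the TMM factor. Without single mice the counts ranged from 5 to 6 between ACEi and Veh, from 1 to 2 between Anti-miR-21 and WT and from 2 to 4 between ACEi and WT. Some values that had not passed the test in edgeR or in the ratio tests changed sign. Between Anti-miR-21 and WT, Krt7 was 0.18 with library totals and on both FPKM scales and 0.10 in flow cell A, and Krt5 was 0.22 there. Between ACEi and WT, Krt7 was −0.21 in flow cell B, and Krt23 was 0.03, 0.00 and 0.02 with library totals, log2(FPKM + 1) and log2(FPKM + 0.1). Without single mice Krt5 ranged from −1.23 to 1.35 between the treatments, from −2.20 to 0.15 between Anti-miR-21 and WT and from −2.54 to 0.37 between ACEi and WT, Krt23 from −0.61 to 0.13 in the last contrast, the Krt19 to Krt18 ratio from −0.18 to 0.05 between the treatments, and the Krt5 to Krt14 ratio from −0.39 to 1.22 between Veh and WT and from −0.91 to 0.31 between ACEi and Veh. The cause was not tested. With 5 added to the counts the Krt5 to Krt14 ratio passed between ACEi and Veh (−0.90, adjusted p = 0.0433, exact permutation). With 3 ACEi mice, and few counts of Krt5, Krt20 and Krt23 in WT, small differences of these genes were not detectable. No paired analysis was possible because the mouse names are unique and pair no mice.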
